A study of Mus musculus with 2 samples.

Results

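The transporter genes described here move sodium, potassium, chloride, bicarbonate, protons, calcium and zinc across the membranes of brain cells. They comprise 61 of the 32285 genes counted and were chosen by symbol alone, as every numbered a-member of the Slc4, Slc8, Slc9, Slc12, Slc24, Slc30 and Slc39 families together with Slc8b1. By family there were 10 Slc4, 4 Slc8, 9 Slc9, 9 Slc12, 5 Slc24, 10 Slc30 and 14 Slc39 genes. Their RNA was measured by droplet single-nucleus sequencing (10x Genomics) in the hippocampus of 3-month-old mice. There were 2 libraries, 1 labelled male and 1 labelled female, and both were labelled Stra8-cKO with the genotype Stra8L/-; Nestin-Cre. Nestin-Cre expresses Cre recombinase in neural stem and progenitor cells, so neurons, astrocytes and oligodendrocyte lineage cells descend from cells that had Cre, whereas microglia do not. No library with intact Stra8 was analysed here, and the sources used here do not say how many mice lie behind each library. The values therefore describe these 2 libraries and not an effect of the genotype.

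The chloride level of a neuron is set mainly by cation-chloride cotransporters: NKCC1, from Slc12a2, brings chloride in, and the KCC proteins, such as KCC2 from Slc12a5, take it out, which decides how a cell answers GABA. Bicarbonate transporters and sodium-hydrogen exchangers hold the pH of the cytosol and of endosomes, and sodium-calcium exchangers remove calcium after activity. In the hippocampus zinc is packed into the vesicles of mossy fibres by ZnT3, from Slc30a3, while other ZnT (Slc30) proteins take zinc out of the cytosol and ZIP (Slc39) proteins bring it in.

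The male library held 16174 barcodes with 103262825 unique molecular identifiers (UMIs, each marking 1 captured RNA molecule), and the female library 20150 barcodes with 108286856 UMIs. After filtering and removal of doublets 13880 male and 17145 female nuclei were kept, with medians of 4335 and 2682 UMIs. The libraries shared 101 barcode sequences, 0.624% and 0.501% of their barcodes. Stra8 was counted with 3 UMIs in the whole male library and 6 in the whole female library; with no control library this does not check the deletion. Xist was at 1.29 CPM (UMIs of a gene in each 1000000 counted) in the male library and 2141 CPM in the female library, and 4 Y-linked genes summed to 396 and 2.02 CPM. Nuclei were clustered without the transporter genes, and clusters were named from marker genes. This gave 9 main classes, each of 200 or more nuclei per library, and 4 smaller classes of 50 or more nuclei over both libraries. Clusters named as choroid plexus epithelial cells (25 male and 0 female nuclei) and Cajal-Retzius cells (32 and 17) were smaller still and were not described. In all 9 main classes the class's own list of 8 markers summed higher than in any other main class, in both libraries. The clusters were named from these same lists, so this follows largely from the naming and is no separate check of it. Unnamed clusters held 6.48% of nuclei in the male library and 28.3% in the female, so that the libraries also differ in what was left out of the classes. The mature oligodendrocytes of the 2 libraries fell largely into different clusters, 1 with 2205 male and 127 female nuclei and 1 with 139 male and 3449 female nuclei. The subiculum or entorhinal class joined clusters of 323, 338 and 477 male nuclei and, in the same order, 275, 233 and 49 female nuclei.

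Levels are given as CPM within a class and library, and they are compared within a gene across classes, not between genes, because CPM is not scaled to length. A gene entered a class comparison with at least 100 UMIs over both libraries and 20 CPM in either. Of the 61 members, 41 passed this floor in some main class and 20 did not. With a single library per group there is no replicate error and no test: intervals are exact 95% intervals for counting error only, and a difference is called where it is at least 2-fold on CPM plus 5. The sources used here do not say whether the counting used strand, and reads of a member and of a gene overlapping it cannot be told apart. This touches 22 members that overlap a counted gene on the other strand and 3 that overlap one on the same strand.

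The share of members with the same highest class in both libraries was near that of all genes. The class with the highest level was the same in both libraries for 32 of 41 members (78.0%), against 72.2% of all 11075 genes that passed the same floor. For 19 of the 32, the interval of the ratio to the next class lay above 0 in both libraries. The rest included near ties such as Slc4a8, at 59.8 CPM in female CA3 and 59.6 CPM in female subiculum neurons. Microglia were highest for 7 members, astrocytes and dentate granule neurons for 6 each, oligodendrocytes for 5, GABAergic interneurons for 3, CA1 and CA3 pyramidal neurons for 2 each, and subiculum or entorhinal neurons for 1. A lead of at least 2-fold over every other main class in both libraries was seen for 6 of 41 members (14.6%), against 13.7% of all genes, so these shares are near the background. They included Slc12a2 and Slc24a2 in oligodendrocytes, Slc9a9 in microglia, and Slc30a10 and Slc39a12 in astrocytes. Across the 9 classes, Spearman's rho between the male and female levels of a member had a median of 0.883, from 0.4 for Slc30a6 to 1 for Slc4a2, as a description over classes that share a library. In 4 members the mean of the 5 neuronal classes was at least 2-fold above the mean of the 4 glial classes in both libraries (Slc4a10, Slc9a2, Slc24a4 and Slc24a5), and in 6 it was at least 2-fold below (Slc4a4, Slc8b1, Slc9a9, Slc12a2, Slc12a4 and Slc39a12). No share over all genes was taken for these counts, so they are not read as a trait of the members. Slc8b1 and Slc12a4 passed the floor in 1 class only, astrocytes, where they were highest.

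**Figure D1:**
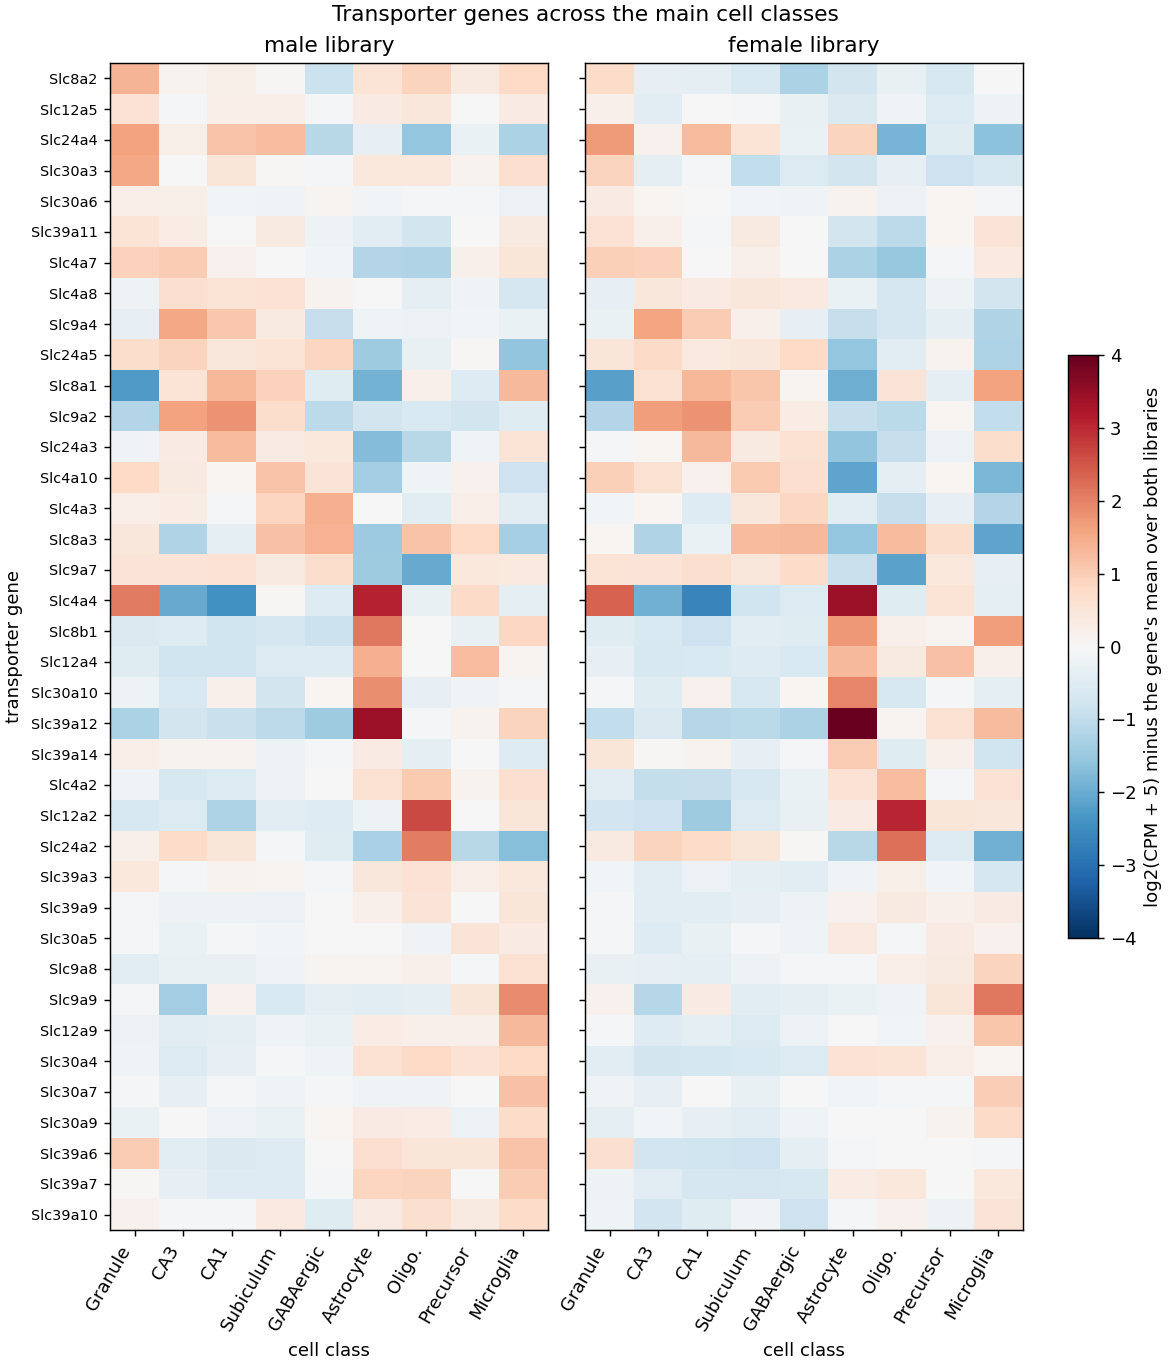
Level of 38 of the 41 transporter genes that passed the floor, in the 9 main classes, male library on the left and female library on the right, as log2(CPM + 5) minus the gene's mean over both libraries. Rows are grouped by the class with the highest male level. The 2 panels show nearly the same colour blocks, with a median Spearman's rho of 0.883, and the darkest red cells are those of Slc39a12 and Slc4a4 in astrocytes and of Slc12a2 in oligodendrocytes.

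Among the chloride cotransporters, the importer and the exporters were highest in different classes. Slc12a2 (NKCC1) was at 518 CPM (497 to 541) in male and 688 CPM (668 to 708) in female oligodendrocytes. The next classes, microglia in the male library and oligodendrocyte precursors in the female, were at 111 and 112 CPM. The oligodendrocyte level was thus 4.52-fold and 5.94-fold above the next class. It was lowest in CA1 pyramidal neurons, at 30.5 and 26.0 CPM, and lay between 42.4 and 62.3 CPM in the other 4 neuronal classes of both libraries. Astrocytes, at 66.9 and 99.9 CPM, were above all 5 neuronal classes of their own library.

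Slc12a9, an orphan member of the family, was highest in microglia, at 57.3 and 50.0 CPM, with 26.4 CPM in male astrocytes and 23.7 CPM in female precursors next, a lead just under 2-fold. Slc12a4 (KCC1) was low throughout but uneven, at 20.7 and 18.3 CPM in astrocytes, 17.3 and 16.2 CPM in precursors and at most 2.50 CPM in any neuronal class.

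Slc12a5 (KCC2) is known as the chloride exporter of mature neurons, yet here its level was nearly flat over neurons and glia. It was highest in granule neurons, at 206 CPM (200 to 212) and 156 CPM (149 to 164). In the male library it was at 189 CPM in oligodendrocytes, 173 CPM in microglia and 170 CPM in astrocytes, against 164 CPM in CA1 and 127 CPM in CA3 pyramidal neurons. In the female library it was at 123, 117 and 89.3 CPM in those glia, against 136 and 98.4 CPM. The highest class exceeded the lowest by 1.59-fold and 1.71-fold. Shares of nuclei with a UMI depended on depth: 72.8% of male CA3 nuclei and 22.6% of male microglia had one, with median depths of 10699.5 and 1541.5 UMIs. With every nucleus thinned to 1000 UMIs the shares were 12.04% and 16.4%. In the female library they were 65.4% and 17.3% before thinning, at medians of 10777 and 1599 UMIs, and 8.75% and 10.7% after. The thinned share in CA3 neurons was thus below that in microglia in both libraries. How much of either share is background and how much is expression was not tested.

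**Figure D2:**
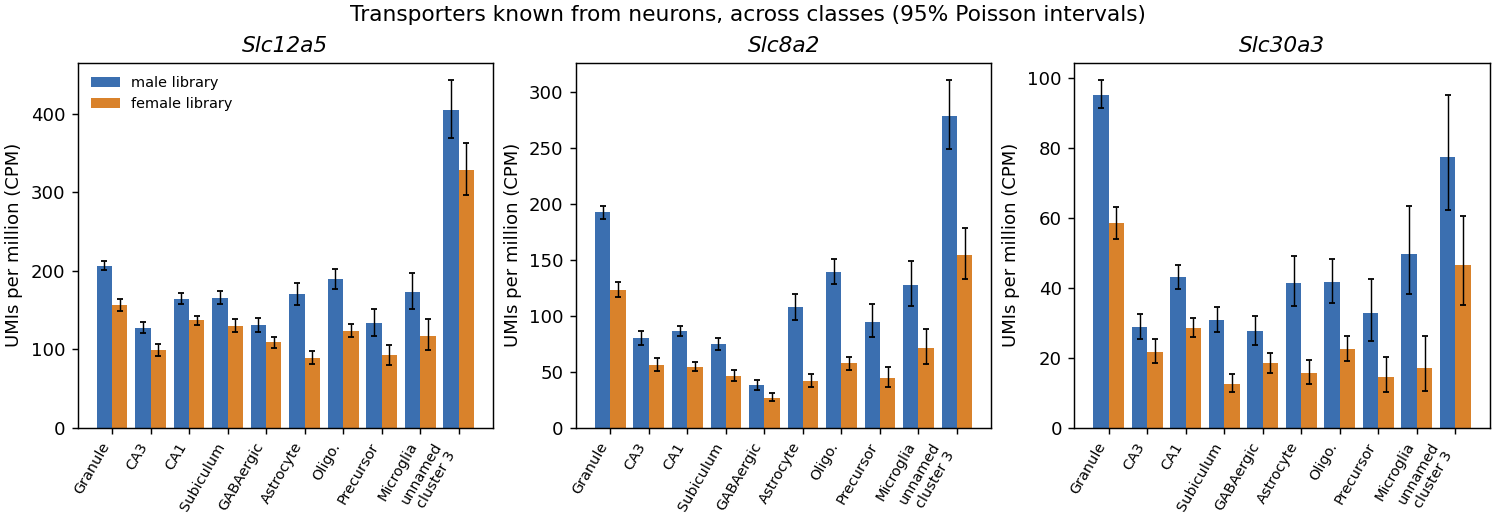
CPM of Slc12a5, Slc8a2 and Slc30a3 in the 9 main classes and in unnamed cluster 3, as bars for the male and the female library with exact 95% Poisson intervals. Slc12a5 spans 127 to 206 CPM over the male and 89.3 to 156 CPM over the female classes and reaches 404 and 328 CPM in unnamed cluster 3.

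The kinases that switch these cotransporters were measured beside them, as a list of 10 genes of the WNK pathway, in which WNK kinases activate SPAK (Stk39) and OSR1 (Oxsr1) and these phosphorylate NKCC1 and the KCCs. Of the 10, 9 passed the floor and none led a single class by 2-fold in both libraries. Stk39 was at 166 and 209 CPM in oligodendrocytes, close in the male library to CA1, at 165 and 172 CPM, and to subiculum, at 163 and 184 CPM, and was low in microglia at 41.2 and 28.0 CPM. Wnk1 was highest in microglia, at 767 and 1051 CPM, with oligodendrocytes next at 506 and 611 CPM. Oxsr1 was highest in astrocytes, at 55.5 and 55.7 CPM, and Cab39l, a scaffold of SPAK and OSR1, in oligodendrocytes, at 131 and 215 CPM.

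Among the main classes, of the 6 bicarbonate transporters of the Slc4 family that passed, Slc4a4 was highest in astrocytes, Slc4a2 in oligodendrocytes and the others in neuronal classes. Slc4a4 encodes NBCe1, which carries sodium with bicarbonate and is known from astrocytes. It was at 1376 CPM (1337 to 1417) in male and 1805 CPM (1769 to 1842) in female astrocytes, and 93.1% and 94.7% of these nuclei had a UMI. Granule neurons came next with 691 and 833 CPM, and the astrocyte lead was 1.99-fold and 2.16-fold, so that Slc4a4 fell just outside the 2-fold rule in the male library. In CA1 pyramidal neurons it was at 25.8 and 21.4 CPM, and in CA3 at 35.3 and 38.5 CPM. At 1000 UMIs per nucleus 45.3% and 49.7% of granule neurons had a UMI, against 3.14% and 2.57% of CA1 neurons. The granule level was therefore far above that of the other principal neurons. The 8 markers of granule neurons summed to 675 and 621 CPM in the astrocyte class, more than in any other main class besides granule neurons, and their part in the astrocyte values was not tested.

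Slc4a10 (NBCn2, or NCBE), a neuronal sodium-dependent bicarbonate importer, was highest in subiculum or entorhinal neurons, at 545 and 513 CPM. Granule neurons followed at 428 and 484 CPM, and the lead over them was 1.27-fold and 1.06-fold. Astrocytes were lowest, at 93.4 and 53.0 CPM. Slc4a7 (NBCn1) was high in CA3 pyramidal neurons, at 232 and 221 CPM, and in granule neurons, at 218 and 226 CPM, and the order of these neighbours differed between libraries. Oligodendrocytes, at 46.5 and 36.2 CPM, and astrocytes, at 48.0 and 44.4 CPM, had the least. Slc4a3 (AE3), a chloride-bicarbonate exchanger linked to seizure susceptibility in mice and humans, was highest in GABAergic interneurons, at 113 and 72.9 CPM, with subiculum next at 74.4 and 55.3 CPM. Slc4a8 (NDCBE), which exchanges sodium and bicarbonate for chloride, was at 68.3 and 59.8 CPM in CA3 neurons and close behind in subiculum, at 65.7 and 59.6 CPM, a difference within counting error in both libraries. Slc4a2 (AE2) was low, with its highest level in oligodendrocytes at 25.1 and 29.2 CPM. Slc4a5 did not pass, at no more than 2.82 CPM in any main class, and the main classes leave out the few choroid plexus nuclei.

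Carbonic anhydrases, the enzymes that interconvert carbon dioxide and bicarbonate, were taken as a list of 16 genes, of which 8 passed the floor. Car2, the soluble enzyme known from oligodendrocytes, was at 502 and 390 CPM there and at 132 and 141 CPM in astrocytes. Car14, a membrane-bound enzyme, was at 54.2 and 38.3 CPM in oligodendrocytes and at most 10.7 CPM in the other main classes. Car8, a carbonic anhydrase-related protein without catalytic activity, was at 76.7 and 37.1 CPM in oligodendrocyte precursors and at most 6.29 CPM elsewhere. These 3 led their class by at least 2-fold in both libraries. Car7, a neuronal cytosolic enzyme, was highest in CA1 neurons, at 23.7 and 20.1 CPM, and Car12 in granule neurons, at 64.8 and 58.0 CPM.

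Among the calcium exchangers, the classes ordered differently for each gene. Slc8a1 (NCX1) exchanges sodium for calcium at the plasma membrane. It stood at 2158 and 2142 CPM in CA1 pyramidal neurons and at 2125 and 2605 CPM in microglia. The male levels of these 2 classes did not differ beyond counting error, whereas microglia were 1.22-fold higher in the female library. Granule neurons had the lowest level, at 175 and 188 CPM, so that the principal neurons of CA1 and of the dentate gyrus were at opposite ends of the range. CA3 and subiculum lay between, at 1263 and 1300 CPM and at 1638 and 1864 CPM. Slc8a3 (NCX3) was highest in GABAergic interneurons, at 109 and 103 CPM, with subiculum at 92.7 and 99.0 CPM and oligodendrocytes at 91.3 and 98.7 CPM. It was low in astrocytes, at 10.8 and 9.92 CPM, and in CA3, at 13.7 CPM in both libraries. Slc8b1 (NCLX), which exports calcium from mitochondria, was at 36.3 and 26.9 CPM in astrocytes and 12.2 and 25.4 CPM in microglia, but at no more than 2.14 CPM in any neuronal class.

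Slc8a2 (NCX2) is known from neurons. It was highest in granule neurons, at 192 CPM (187 to 198) and 123 CPM (117 to 130), but its lowest level was in a neuronal class, GABAergic interneurons, at 37.7 and 26.7 CPM. Oligodendrocytes, at 139 and 57.3 CPM, lay above CA1 pyramidal neurons, at 86.2 and 54.3 CPM. At 1000 UMIs per nucleus 12.2% and 5.95% of oligodendrocytes had a UMI, against 8.40% and 6.23% of CA1 neurons and 16.8% and 12.5% of granule neurons. The CA1 share was below the oligodendrocyte share in the male library and above it in the female library. The part of background in these shares was not tested.

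Slc24 proteins exchange sodium for calcium and potassium together. Slc24a2 (NCKX2), studied in hippocampal neurons, was highest in oligodendrocytes, at 3760 and 4197 CPM, with CA3 pyramidal neurons next at 1491 and 1678 CPM, a lead of 2.52-fold and 2.50-fold. Neuronal levels ran down to 644 CPM in male and 940 CPM in female GABAergic interneurons, and microglia had the least, at 276 and 237 CPM. Slc24a3 (NCKX3) was highest in CA1, at 664 and 687 CPM, with microglia next at 409 and 453 CPM. Slc24a4 (NCKX4) was highest in granule neurons, at 114 and 123 CPM. Subiculum or entorhinal neurons came next in the male library, at 87.7 CPM, and CA1 in the female, at 88.9 CPM. It was at 8.45 and 5.75 CPM in oligodendrocytes. Slc24a5 (NCKX5), known from pigment cell organelles, was at 117 to 168 CPM in the neuronal classes of both libraries and at 26.7 to 97.9 CPM in the glial ones; Myef2 overlaps it on the other strand.

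In the list of 16 calcium pumps and genes of mitochondrial calcium uptake, 12 passed and none led a class by 2-fold. Mcu, the pore of the mitochondrial calcium uniporter, was highest in CA3, at 277 and 235 CPM, and lowest in oligodendrocytes, at 58.7 and 54.2 CPM. Of the 12 sodium pump genes, whose gradient drives the exchangers and NKCC1, 9 passed. Atp1b2, a pump subunit known from astrocytes, led in astrocytes, at 205 and 211 CPM.

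**Figure D3:**
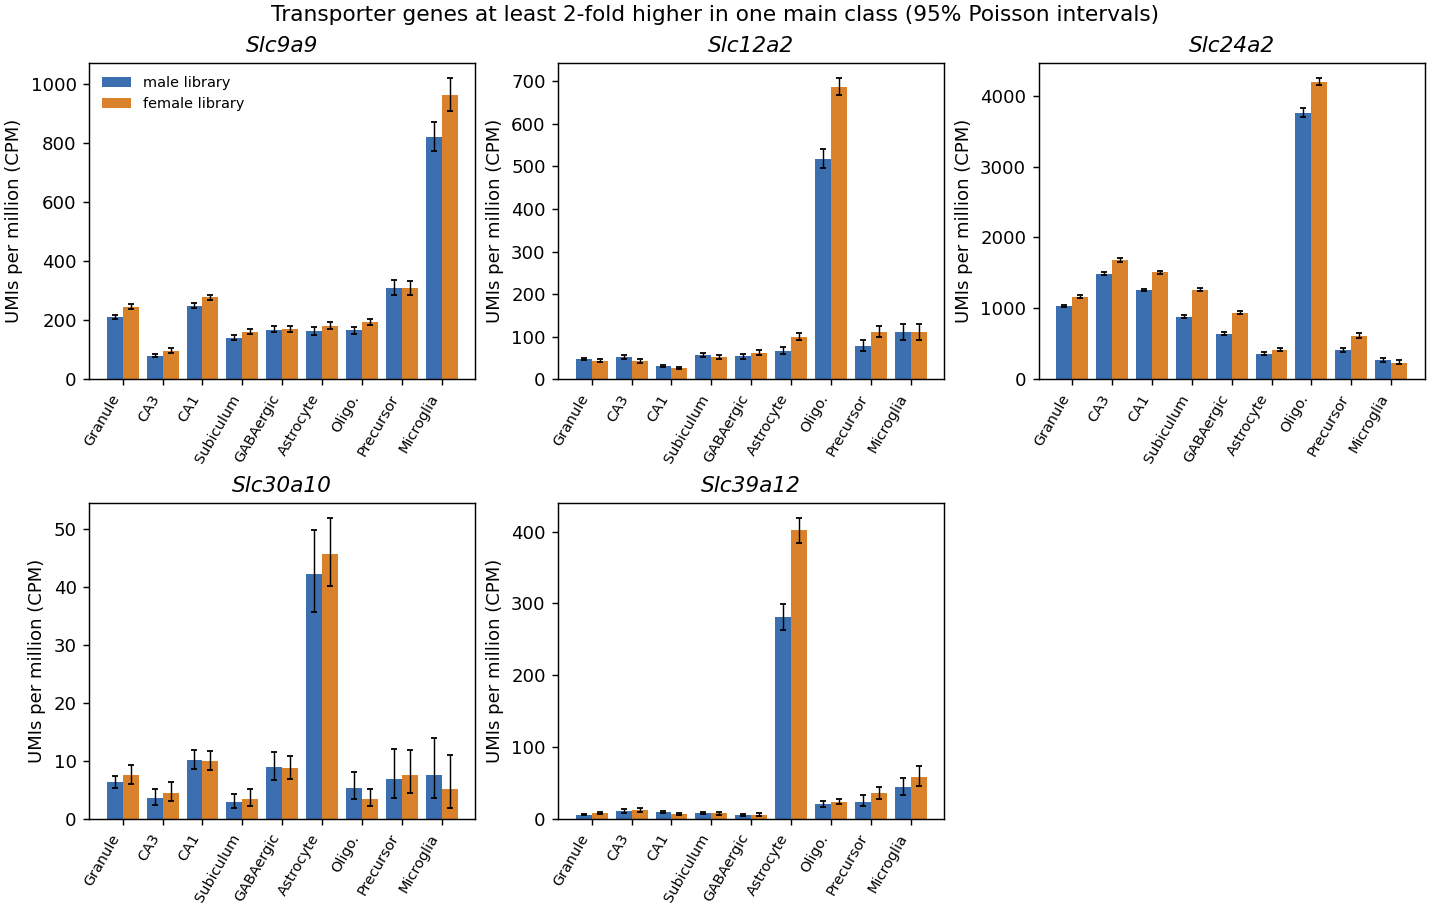
CPM of 5 transporter genes that were at least 2-fold higher in a single main class than in every other in both libraries, by class, as bars for the male and the female library with exact 95% Poisson intervals. In each panel 1 pair of bars stands above the rest, from Slc30a10 in astrocytes at 42.3 and 45.8 CPM to Slc24a2 in oligodendrocytes at 3760 and 4197 CPM.

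Of the sodium-hydrogen exchangers, an endosomal member stood out in microglia. Slc9a9 (NHE9), which regulates the pH of endosomes, reached 821 CPM (male) and 962 CPM (female) in microglia. Precursors came next at 310 and 309 CPM, giving a lead of 2.63-fold and 3.08-fold, and CA3 neurons were lowest at 79.8 and 97.3 CPM. Slc9a8 (NHE8), a Golgi exchanger, was also highest in microglia, at 51.9 and 63.6 CPM, over a narrow range that reached down to 21.9 CPM in male granule and 24.1 CPM in female CA1 neurons.

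Among the main classes Slc9a2 (NHE2) was highest in the pyramidal neurons of CA1 and CA3. It was at 63.6 and 64.1 CPM in CA1 and 56.1 and 58.2 CPM in CA3 pyramidal neurons, but at 3.72 and 3.74 CPM in granule neurons. CA1 and CA3 differed by less than counting error in the female library. Slc9a4 (NHE4) was highest in CA3, at 33.9 and 34.9 CPM, and next in CA1, at 23.5 and 21.8 CPM. Slc9a7 (NHE7), of the trans-Golgi network, was even over the neuronal classes, at 75.7 to 98.6 CPM in the male and 81.5 to 101 CPM in the female library, with 80.1 and 80.0 CPM in precursors and 10.6 and 9.28 CPM in mature oligodendrocytes. In the list of 7 partners of these exchangers 5 passed, and Ezr (ezrin), which links membrane proteins to actin, led in astrocytes at 94.0 and 145 CPM.

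Of the zinc transporters, Slc30a10 and Slc39a12 led in astrocytes by at least 2-fold in both libraries. Slc30a10 (ZnT10), a zinc family member known to export manganese, was at 42.3 and 45.8 CPM in astrocytes, with CA1 next at 10.1 and 9.94 CPM, a lead of 3.13-fold and 3.40-fold. It passed the floor in 1 class only, astrocytes, and its other levels were low enough for the pseudocount to matter. The lower log2 lead of the 2 libraries, 1.64, was 1.96 with a pseudocount of 1 CPM and 1.38 with 10 CPM. With called doublets and the doublet-rich clusters kept, it was 0.97, just under 2-fold. Slc39a12 (ZIP12), a zinc importer, was at 281 and 402 CPM in astrocytes and at 44.3 and 58.5 CPM in microglia, a lead of 5.80-fold and 6.41-fold, and at most 12.6 CPM in any neuronal class. Slc39a14 (ZIP14), which takes up zinc, iron and manganese, was highest in astrocytes as well, at 42.9 and 73.1 CPM, but with male granule neurons at 41.1 CPM and CA3 at 37.4 CPM the male values did not stand apart.

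The metallothioneins Mt1 and Mt2, small zinc-binding proteins induced by zinc, were also highest in astrocytes, at 841 and 967 CPM and at 291 and 426 CPM. Metallothionein genes are switched on through metal response elements by the factor MTF-1, and the promoters of the 2 transporters that led in astrocytes are shown for that element. Each line gives the 250 bases before the transcript start from RefSeq on GRCm38.p6, plus strand. Slc30a10 lies at chr1:185454598-185454847 and Slc39a12 at chr2:14388148-14388397. Capitals mark the letters TGCGCNC or TGCACNC read on either strand.
Slc30a10: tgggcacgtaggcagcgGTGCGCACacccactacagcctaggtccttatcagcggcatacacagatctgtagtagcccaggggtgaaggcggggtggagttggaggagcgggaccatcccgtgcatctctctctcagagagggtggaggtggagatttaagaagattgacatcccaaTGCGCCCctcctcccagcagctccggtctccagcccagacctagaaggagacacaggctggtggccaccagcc
Slc39a12: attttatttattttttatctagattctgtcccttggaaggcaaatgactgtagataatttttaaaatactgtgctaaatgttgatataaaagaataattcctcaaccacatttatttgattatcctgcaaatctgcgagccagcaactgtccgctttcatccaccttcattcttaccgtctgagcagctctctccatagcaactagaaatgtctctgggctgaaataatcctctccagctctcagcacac

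The Slc30a10 window held 3 matches, of which the 2 in the left run of capitals overlap on opposite strands, and the Slc39a12 window held 0. Promoters were matched for 47 members. A match was present in 9 of 20 zinc transporters (45%), in 9 of the 27 other members and in 21.3% of 27025 genes. A match describes letters only, and no test was made of it.

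Slc30a3 (ZnT3), which loads zinc into synaptic vesicles, was highest in granule neurons, the cells whose axons form the mossy fibres, at 95.2 CPM (91.3 to 99.3) and 58.4 CPM (54.0 to 63.0). The other classes ran from 27.5 to 49.6 CPM in the male and from 12.5 to 28.6 CPM in the female library. Male microglia, at 49.6 CPM, were the second highest class and lay above CA1, at 43.0 CPM. At 1000 UMIs per nucleus 9.57% and 5.88% of granule neurons had a UMI, against 4.23% and 2.02% of microglia and 3.84% and 1.72% of CA3 neurons. The granule share was above the share in microglia, and the CA3 share was below it, in both libraries. The part of background in these shares was not tested. Dnajc5g overlaps Slc30a3 on the other strand.

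The remaining exporters were spread widely. Slc30a9 (ZnT9) was highest in microglia, at 124 and 126 CPM, and Slc30a7 (ZnT7), a Golgi transporter, was at 85.5 and 73.8 CPM in microglia and 26.8 to 35.04 CPM in the other main classes. Slc30a5 (ZnT5), of the early secretory pathway, ranged from 37.3 to 67.4 CPM and from 30.5 to 60.7 CPM. Slc30a4 (ZnT4) was at 31.2 and 25.5 CPM in oligodendrocytes 26.4 and 25.8 CPM in astrocytes and 31.3 and 17.0 CPM in microglia, and at most 14.7 CPM in neurons. Slc30a1 (ZnT1), the exporter of the plasma membrane, did not pass, with at most 18.9 CPM in a main class. Among the importers, Slc39a10 (ZIP10) was highest in microglia at 102 and 86.5 CPM, and Slc39a11 (ZIP11) in granule neurons at 58.2 and 59.3 CPM, with microglia at 50.4 and 56.8 CPM. Slc39a8 (ZIP8), a transporter of zinc and manganese, did not pass, at 10.7 and 14.4 CPM in microglia.

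In the list of 13 zinc-binding and vesicle-sorting genes 12 passed. Tmem163, a vesicular zinc transporter, led in oligodendrocyte precursors at 180 and 92.0 CPM, with mature oligodendrocytes at 38.0 and 20.3 CPM. Ap3b2, the neuronal subunit of the AP-3 adaptor that sorts ZnT3, was highest in subiculum or entorhinal neurons, at 73.7 and 58.5 CPM.

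In the 4 smaller classes a few members stood above every main class. Slc12a7 (KCC4) was at 38.1 CPM from 7 UMIs in 34 male and 83.6 CPM from 31 UMIs in 78 female fibroblast or meningeal nuclei, against 3.82 and 10.2 CPM in microglia, the highest main class. The log2 ratios were 2.29 (0.99 to 3.24) and 2.55 (1.75 to 3.28). In the same nuclei Slc4a10 was at 866 and 1421 CPM, above subiculum or entorhinal neurons in both libraries, and Slc9a2 at 92.6 and 194 CPM, above CA1 beyond counting error in the female library. Slc30a1 was at 18.8 CPM in 63 male and 45.5 CPM in 258 female endothelial nuclei, a class whose cluster also carried pericyte genes, and exceeded astrocytes by log2 ratios of 0.21 (-0.85 to 1.22) and 1.08 (0.59 to 1.55). Slc39a10 was at 113 and 150 CPM there, with log2 ratios to microglia of 0.15 (-0.40 to 0.66) and 0.76 (0.40 to 1.13). The thalamic or habenular class held 151 female and 0 male nuclei, in which Slc12a8 was at 20.4 CPM and Slc8a3 at 186 CPM, above every main class of that library. Among ependymal nuclei, 81 female and 5 male, Slc12a7 was at 22.5 CPM from 11 UMIs in the female library. Its log2 ratio to microglia there was 0.86 (-0.13 to 1.78), within counting error.

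Between the libraries most members differed little. Over the 9 main classes 273 pairs of a member and a class passed the floor. Of these, 6 pairs (2.198%) were at least 2-fold higher in the male library, against 0.595% of all gene and class pairs, and 1 pair (0.366%) was at least 2-fold higher in the female library, against 0.475%. The 7 pairs came from 4 members, Slc8a2, Slc30a3, Slc4a10 and Slc24a4. By class, the median log2 ratio of male over female lay between 0.03 and 0.19 for the members and between 0.05 and 0.12 for all genes.

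Slc8a2 gave 3 of the 6 male pairs. It was at 107 CPM in male and 41.6 CPM in female astrocytes (log2 ratio 1.27, 1.04 to 1.496). In oligodendrocytes it was at 139 and 57.3 CPM (1.21, 1.03 to 1.38), and in precursors at 94.5 and 44.6 CPM (1.01, 0.67 to 1.34). It was also higher in the male library in each of the other main classes, by 0.43 in GABAergic interneurons to 0.80 in microglia. In the oligodendrocyte cluster made up mainly of male nuclei the ratio was 0.31 (-0.24 to 0.90), and in that mainly of female nuclei 1.19 (0.66 to 1.68). Slc30a3 was at 41.4 and 15.6 CPM in astrocytes (1.17, 0.84 to 1.497) and at 30.7 and 12.5 CPM in subiculum or entorhinal neurons (1.03, 0.77 to 1.29), and its ratio was above 0 in every main class. The clusters of the subiculum class were mixed unequally between the libraries, and their part in its ratio was not tested. Slc4a10 was at 137 and 66.1 CPM in microglia (1.00, 0.63 to 1.38), on the 2-fold line. With called doublets and the doublet-rich clusters kept, this ratio was 0.15.

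Set beside the background, astrocytes had 2 of 37 members past 2-fold in the male direction, where 1.1% of all genes were. Oligodendrocytes had 1 of 34 (0.752%), precursors 1 of 29 (0.365%), subiculum 1 of 30 (0.864%) and microglia 1 of 22 (1.09%). In the female direction these 4 classes had 0, where 0.727%, 0.526%, 0.474% and 0.85% of all genes were. Granule, CA1, CA3 and GABAergic neurons had 0 of 29 to 31 in either direction. Their background was 0.425%, 0.315%, 0.241% and 0.191% toward the male library and 0.178%, 0.105%, 0.12% and 0.736% toward the female. Lists of markers of other cell types moved in both directions between the libraries in these classes, and those of granule neurons and choroid plexus were higher in the male library. The 8 granule neuron markers summed to 675 and 621 CPM in astrocytes, 402 and 222 CPM in oligodendrocytes, 585 and 387 CPM in precursors, 400 and 164 CPM in microglia and 272 and 229 CPM in subiculum, with 6 to 8 of the 8 higher in the male library and none at 0. The 8 choroid plexus markers summed to 1668 and 286 CPM in astrocytes, 3597 and 1181 CPM in oligodendrocytes, 1487 and 361 CPM in precursors, 2781 and 320 CPM in microglia and 857 and 266 CPM in subiculum, with 6 to 8 higher in the male library. None of them was at 0 in the male library, and 1 was at 0 in female astrocytes, microglia and subiculum. The cluster named as choroid plexus held 25 male and 0 female nuclei. The 8 oligodendrocyte markers went the other way, at 2914 and 3803 CPM in astrocytes, 1363 and 2376 CPM in precursors, 1798 and 2716 CPM in microglia and 471 and 655 CPM in subiculum, with 0 or 1 of the 8 higher in the male library and none at 0. The part of these 3 lists in the ratios of Slc8a2, Slc30a3 and Slc4a10 was not tested.

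Slc24a4 was the single member past 2-fold toward the female library. It was at 26.1 CPM in male and 68.1 CPM in female astrocytes (-1.23, -1.53 to -0.94), where 0.562% of all genes passed. With called doublets and the doublet-rich clusters kept, the ratio was -0.16, which ended the call. GABAergic interneurons moved the same way, at 13.4 and 28.0 CPM, and subiculum the other way, at 87.7 and 52.5 CPM. Slc4a4 and Slc12a2 were higher in the female library in the classes where they led, by log2 ratios of -0.39 (-0.44 to -0.34) and -0.40 (-0.48 to -0.33), both under 2-fold. In the related lists, 1 of 98 calcium pairs was past 2-fold (Atp2b4 in subiculum, 64.0 and 22.6 CPM), toward the male library. The part of the unequal cluster mix in the subiculum values of Slc24a4 and Atp2b4 was not tested. The WNK, carbonic anhydrase, zinc-binding and exchanger partner lists had 0 past 2-fold among 77, 35, 96 and 27 pairs.

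**Figure D4:**
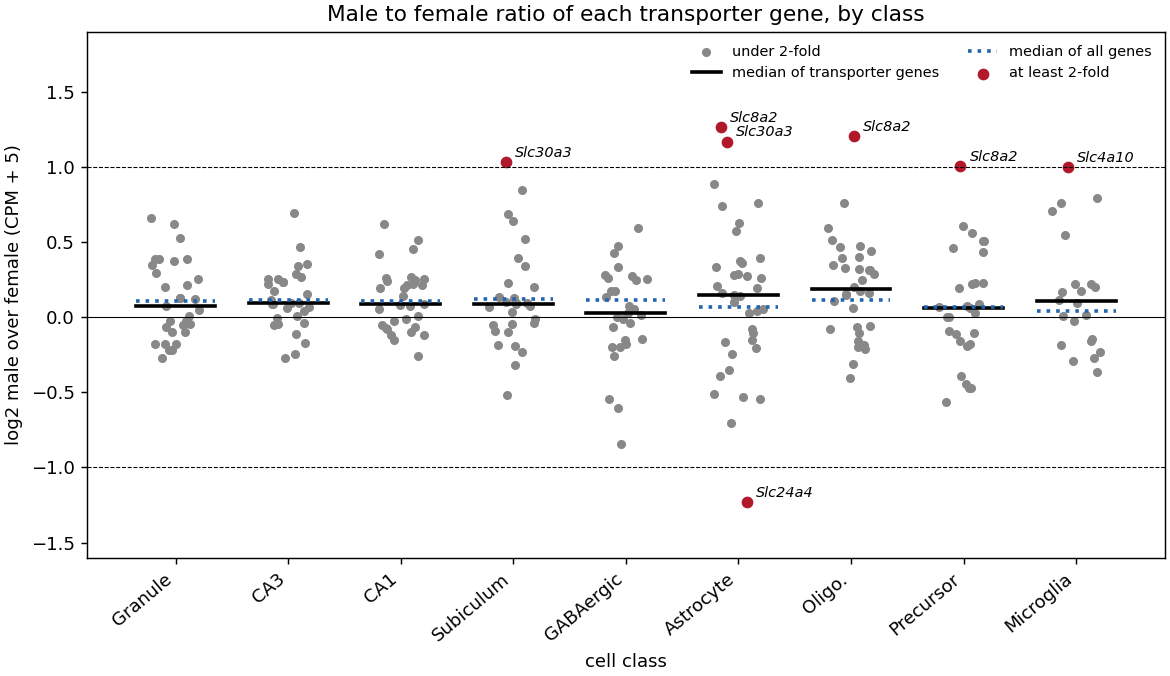
Log2 ratio of male over female CPM (each plus 5) for every transporter gene that passed the floor, by main class; red points are at least 2-fold, the black bar is the median of the transporter genes and the dotted blue bar the median of all genes. All medians lie between 0.03 and 0.19, with Slc8a2, Slc30a3 and Slc4a10 above the upper dashed line and Slc24a4 in astrocytes below the lower one.

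The 20 members that did not pass the floor were Slc4a1, Slc4a5, Slc4a9, Slc4a11, Slc9a3, Slc9a5, Slc12a1, Slc12a3, Slc12a7, Slc12a8, Slc24a1, Slc30a1, Slc30a2, Slc30a8, Slc39a1, Slc39a2, Slc39a4, Slc39a5, Slc39a8 and Slc39a13. Among them Slc9a5 (NHE5), a neuronal exchanger, reached 16.1 CPM in female granule neurons, and Slc24a1 17.8 CPM in female microglia. Slc39a13 (ZIP13) was even, between 8.38 and 17.1 CPM over all main classes and both libraries. Slc12a1 and Slc12a3, the cotransporters of the kidney, were at no more than 3.89 CPM in any main class, and Slc30a8 (ZnT8), known from pancreatic beta cells, at no more than 0.763 CPM. At this depth such levels could not be ordered between classes.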

How the data were processed

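Nuclear RNA of hippocampus was measured in 2 libraries, 1 male and 1 female, which were the only groups. The values are UMI counts per gene and barcode as the authors deposited them, the output of Cell Ranger 7.0.1, per the file headers. The submitters' processing notes name bcl2fastq 2.20.0.422 and the build mm10. For the gene annotation, intronic reads, strand and free RNA, the handling is not given in the sources used. About 10000 nuclei per library were targeted per the labels' protocols. Total depth was 103262825 and 108286856 UMIs, and intervals and floors cover counting error only.

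Nuclei needed 500 or more genes and no more than 5% of UMIs from mitochondrial genes, which left 16034 male and 19251 female. Doublet scores marked 9.57% of the male nuclei by the automatic threshold; this threshold marked 0% of the female nuclei, so the highest scores, 7.51%, were marked there. Marked nuclei and 5 clusters rich in them were removed. Where doublets were kept, both were restored in full, and those clusters took classes by a looser rule on the same marker lists. Clustering used scanpy 1.11.5 (3000 variable genes, 40 components, 15 neighbours, Leiden resolution 1) without the transporter, mitochondrial, Y-linked, Xist and Stra8 genes. Clusters were named where at least 3 markers of a list of 8 supported the name, so class names were rebuilt here and are not the authors'. UMIs were summed per class and library and given as CPM. Ratios are log2 of CPM plus a pseudocount of 5, with exact conditional binomial intervals, and CPM has exact Poisson intervals. With 1 library per group no test was made. The ratio and interval scripts were tested on simulated data. Shares of nuclei with a UMI were also taken after thinning each nucleus to 1000 UMIs, so that 366 shallower nuclei of the male and 1182 of the female library dropped out. Positions come from GENCODE vM21 and promoters from RefSeq, both on GRCm38.

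The text names a list of members picked for their roles, every member past 2-fold between libraries or leading a class by 2-fold, and the leading members of smaller classes; Slc9a4, Slc30a7, the other members below the floor and the related genes singled out were chosen after their values were seen. The members, gene lists and rules were chosen with earlier results of these data known. Counts cover every member, and values of some members and related genes are not reported here. Alternatives changed the nuclei filter, doublets, clustering resolution, clustering genes, depth, floor, pseudocount and centring.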

Additional observations from a re-analysis of the deposited data

Results flagged for a closer look

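Some members were higher in clusters that carried no class name than in any named main class, in both libraries. These nuclei entered no class comparison. The values below are log2 ratios to the highest main class, on CPM plus 5, and the lower of the 2 libraries is given first as the size.

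Unnamed cluster 3 held 651 male and 1034 female nuclei and was led by the neuronal and synaptic genes Ywhah, Dynll2, Calm3 and Rab3a. Its nuclei were shallow, with medians of 1332 and 990 UMIs, against 4335 and 2682 over all kept nuclei. Their median mitochondrial shares were 2.57% and 3.91%, against 0.640% and 1.49%. The marker list that scored best was that of astrocytes, with 0 of its genes among the 20 leading ones, so no cell type is given. In this cluster Slc12a5 was higher by 0.95. It was at 404 CPM (male) and 328 CPM (female), against 206 and 156 CPM in granule neurons. In the same nuclei Slc39a3 was higher by 0.69 (47.3 and 37.2 CPM), Slc39a10 by 0.60 (181 and 134 CPM) and Slc8a2 by 0.31 (278 and 154 CPM).

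In unnamed cluster 28, with 38 male and 761 female nuclei and led by Ebf1, Ebf2 and Pld5, Slc8a3 was higher by 0.59, at 181 and 157 CPM against 109 and 103 CPM in GABAergic interneurons.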

How the results depend on the processing

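No paired analysis was possible because each group holds a single library and no test was made. The number of member and class pairs at least 2-fold higher in the male library was 6 of 273. It was 1 of 199 in nuclei of 1000 or more genes and no more than 1% of mitochondrial UMIs, and 3 of 178 after thinning to 1000 UMIs. With a pseudocount of 10 CPM, and with ratios centred on the median gene, it was 3 of 273. Without the floor, the log2 ratios in the stricter nuclei were 1.62, 1.70 and 0.89 for Slc8a2 in astrocytes, oligodendrocytes and precursors. They were 1.28 and 0.99 for Slc30a3 in astrocytes and subiculum, and 1.40 for Slc4a10 in microglia. After thinning, in the same order, they were 0.91, 1.01, 1.16, 1.14, 1.26 and 1.13. The number at least 2-fold higher in the female library, 1, was 0 with doublets kept, 2 at Leiden resolution 0.5, 3 with no floor and 2 with a pseudocount of 1 CPM. The counts of members with a shared highest class and of class-leading members stayed within 1.5 times under every alternative run. No ratio of the named pairs and no class lead changed sign. Of 56 ratios of named pairs under alternatives 49 moved by less than their counting interval, as did 31 of 42 class leads; with doublets kept the lead of Slc30a10 was 0.97, just under 2-fold. The stricter filter and the thinning left fewer pairs above the floor, and the cause of these changes was not otherwise tested. A single library per sex, the unequal share of unnamed nuclei and the rebuilt class names limit every comparison between libraries, and low members could not be ordered at this depth.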
